A study of Arabidopsis with 8 samples.

Results

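The clade D protein phosphatases of type 2C, PP2C.D1 to PP2C.D9, were followed in Arabidopsis thaliana seedlings. They were taken by locus identifier, and all 9 were listed in every library, out of 25397 genes listed at least once. Root of the saur41/40/71/72 quadruple mutant, root of wild-type Col-0, the shoot part of the mutant and the shoot part of Col-0 gave 2 libraries each, from seedlings 5 days old. By the labels the mutant is hit in SAUR41, SAUR40, SAUR71 and SAUR72, the SAUR41 subfamily; they describe neither the alleles nor a treatment. Each library was made from bulk total RNA of the dissected part. Whether replicate libraries came from separate cultures is not stated, so p-values measure only the spread between these libraries, which may be technical.

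PP2C.D phosphatases remove the phosphate from the penultimate residue, a threonine, of plasma membrane H+-ATPases (AHA proteins) and so switch these proton pumps off. SAUR proteins, the products of small auxin-induced genes, bind the phosphatases and inhibit them, which keeps the pumps active, acidifies the wall and lets the cell expand. Within the clade, PP2C.D2, PP2C.D5 and PP2C.D6 sit at the plasma membrane and are the main restraints on cell expansion, while PP2C.D1 is known from opening of the apical hook and from leaf senescence, where it acts on the receptor kinase SARK.

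Values are FPKM, fragments per kilobase of transcript scaled to library size, a unit divided by gene length. Changes between genotypes still went with length: over the 19985 genes Spearman's rho between the change and the length of the deposited locus was 0.401 in root and 0.528 in shoot, and with RefSeq lengths, over 19819 genes, 0.458 and 0.577, given as a description. Changes are differences of log2(FPKM + 1) with their standard error (SE) from a limma fit over 19985 genes with 4 residual degrees of freedom before moderation. Group means carry the SD of n = 2 libraries. The added 1 FPKM shrinks the changes of genes read at low levels, such as PP2C.D1 in root and PP2C.D9 in shoot.

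The Col-0 shoot replicates stood apart from each other. The median absolute log2 ratio between replicates was 0.631 in Col-0 shoot, against 0.123 in mutant root, 0.139 in Col-0 root and 0.138 in mutant shoot. The limma fit takes a common spread per gene over all groups, so that of Col-0 shoot also enters the SE and p-values in root. Over all tested genes the median change in shoot was 0.31, against -0.00492 in root, so changes in shoot are also given relative to that median. Between 21355 and 22858 genes were listed per library, and the number of reads is unknown. A rough estimate from the steps between low FPKM values put the depth of the libraries at 0.873 to 1.22 of that of Col-0 replicate 1 of the same tissue. It rests on few genes, such as 34 of 3576 compared in mutant shoot replicate 1 and 105 of 2886 in Col-0 root replicate 2. The organ labels were checked with 8 root and 8 green shoot markers. The root markers summed to between 5766 and 6570 FPKM in the root libraries and between 600.5 and 706.9 FPKM in the shoot libraries, of which PYK10 made up at least 594 FPKM in each shoot library; EXPA7 was listed at 0 in all 4 shoot libraries. The green markers summed to between 201.1 and 207.1 FPKM in root and to at least 60890 FPKM in shoot. LHCB1.3 was listed at 0 in Col-0 shoot replicate 1 alone, against at least 15860 FPKM in the other shoot libraries. Of the mutated genes, SAUR72 and SAUR71 lay lower in both mutant shoots than in both Col-0 shoots and SAUR41 overlapped between genotypes in both organs, so "mutant" below means the libraries labelled so.

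PP2C.D1 (AT5G02760, also named APD7) had the highest ratio of shoot to root in the clade and was the 1 member that stood lower in both mutant shoots than in both Col-0 shoots. It had 9.52 and 9.98 FPKM in mutant shoot, against 14.1 and 19.4 FPKM in Col-0 shoot. Both mutant values lay below both Col-0 values, a position that 9.48% of the 19985 tested genes shared. In root PP2C.D1 had the lowest level of the clade, at 0.934 and 0.724 FPKM in the mutant, against 0.524 and 0.408 FPKM in Col-0. There the mutant lay above Col-0 without overlap, as did 20.5% of the tested genes. In bulk samples, fewer cells that carry a transcript and less of it per cell cannot be told apart, here or in any value that follows.

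The change of PP2C.D1 in shoot was -0.71 (SE 0.18, 95% confidence interval -1.14 to -0.28, limma adjusted p = 0.0738), or -1.02 relative to the median of all genes. It ranked 126 from the lowest of the 19985 tested genes in this contrast. It did not pass at the threshold of 0.05 on the values as deposited, and it fell past that threshold once the shift between the shoot libraries was taken out: by 1.14 after median-ratio rescaling within each tissue (limma adjusted p = 0.0433), by 1.14 after quantile normalization (limma adjusted p = 0.0302) and by 1.26 after removal of a trend with gene length (limma adjusted p = 0.0149). With 1 Col-0 shoot library left out the change was -0.93 without replicate 1 and -0.49 without replicate 2. Calls from those fits are no further support, since they drop the spread between the Col-0 shoot replicates, the widest of the 4 groups. With any 1 of the other 6 libraries left out the adjusted p lay between 0.163 and 0.344, and with shoot fitted alone it was 0.333. Over all 22 alternatives the change kept its sign and ranged from -1.26 to -0.49. The 8 green markers, whose transcripts also mark the shoot, summed to 67780 and 60890 FPKM in mutant shoot, against 73800 and 75460 FPKM in Col-0 shoot. The Col-0 sums differ in make-up: LHCB1.3 was at 0 in replicate 1 and at 21260 FPKM in replicate 2. Of the 8 markers 6 had negative changes in shoot, with a median of -0.38. In limma 0 of 8 passed and 2 had an unadjusted p under 0.05. LHCB1.3 was 1 of the 2 markers with a change above 0 (6.81, SE 3.91). After rescaling within the tissue 7 of the 8 lay below 0, and after quantile normalization 3 did, with a median of 0. Their part in the change of PP2C.D1 was not tested.

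In root the change of PP2C.D1 was 0.32 (SE 0.18, 95% confidence interval -0.11 to 0.745, limma adjusted p = 1). The difference between its changes, root minus shoot, was 1.03 (SE 0.255, 95% confidence interval 0.42 to 1.63, limma adjusted p = 0.269). Counted from the lowest it ranked 19971 of 19985 for this difference. Of all tested genes 0 passed in limma for it, and 3094 had an unadjusted p under 0.05. Mutant above Col-0 in root together with mutant below Col-0 in shoot, without overlap, was seen for 149 of the tested genes (0.746%). The opposite arrangement, below in root and above in shoot, was seen for PP2C.D2, PP2C.D7 and PP2C.D9 and for 8.69% of the tested genes.

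**Figure D1:**
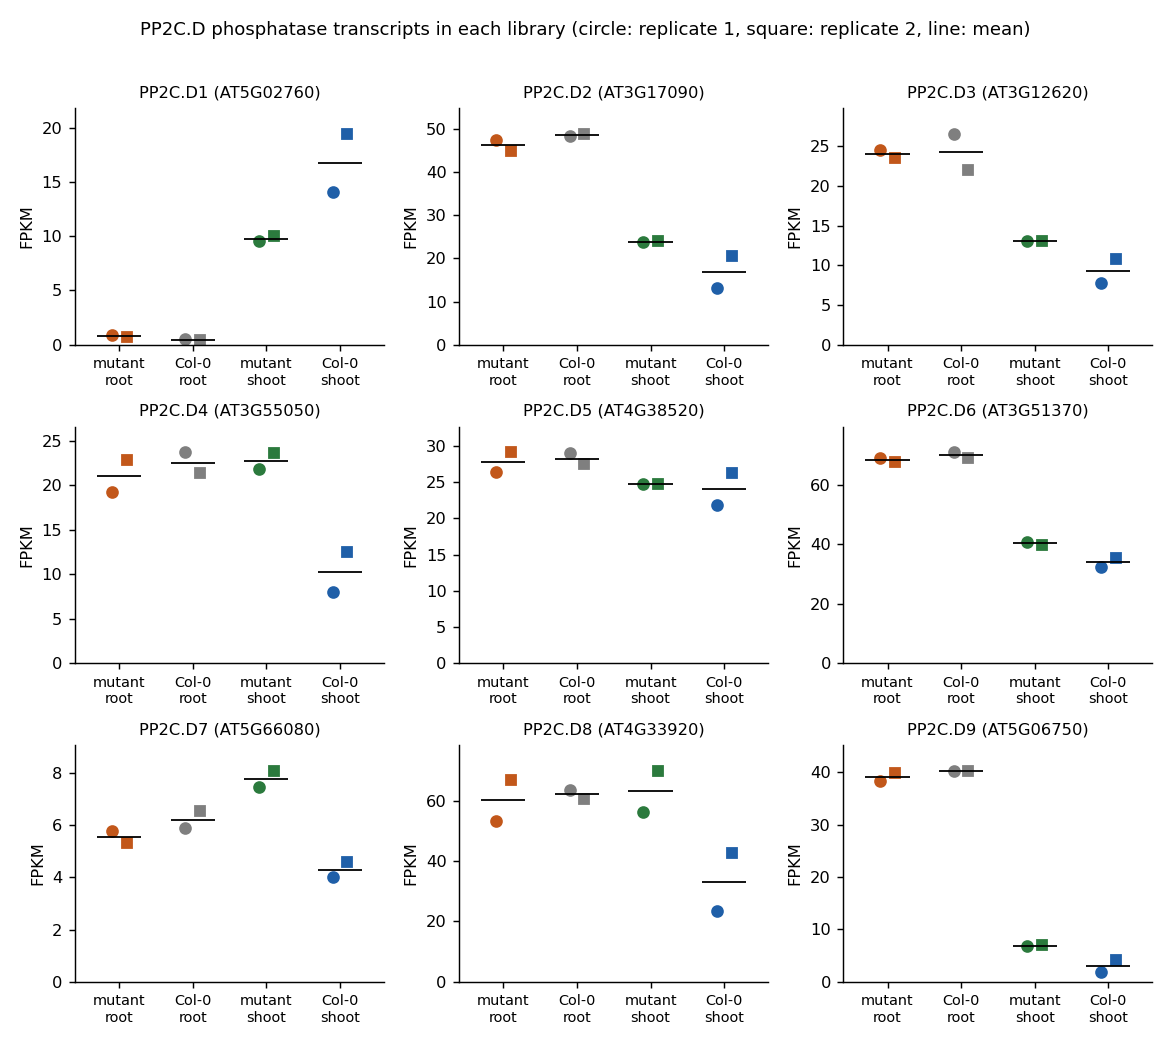
FPKM of each of the 9 PP2C.D genes (vertical axis, from 0, scaled per panel) in mutant root, Col-0 root, mutant shoot and Col-0 shoot, with a circle for replicate 1, a square for replicate 2 and a line at the mean. PP2C.D1 sits below 1 FPKM in root and is the gene whose mutant shoot values (9.52 and 9.98) lie under its Col-0 shoot values (14.1 and 19.4).

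The deposited tables give PP2C.D1 1 merged locus with its neighbour AT5G02770 (TAIR10 chromosome 5, 625254 to 629255), named MOS11 in RefSeq, and reads on the overlap may have been assigned to either gene. In the RefSeq annotation of assembly TAIR10.1 PP2C.D1 ends at 627124 and AT5G02770 starts at 627034. AT5G02770 was the more abundant of the pair, with 108.7 and 109.7 FPKM in mutant root, against 102.5 and 93.1 FPKM in Col-0 root. In shoot AT5G02770 stood at 48.3 and 53.9 FPKM in the mutant, against 22.6 and 35.5 FPKM in Col-0, on the opposite side to PP2C.D1. The level of PP2C.D1 was thus 19.7% and 18.5% of that of its neighbour in mutant shoot, and 62.3% and 54.7% in Col-0 shoot. In root it was 0.859% and 0.66% in the mutant and 0.511% and 0.439% in Col-0, and how far reads of AT5G02770 contribute to the low root values was not tested. The length trend was removed with the span of the merged locus, 4002 bases; with the RefSeq gene length, 1871 bases, the change of PP2C.D1 in shoot was -0.87 (limma adjusted p = 0.0164).

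The share of PP2C.D1 in the summed FPKM of the clade does not change when a library is scaled by 1 factor. It was 4.66% and 4.53% in mutant shoot, against 11.1% and 11.01% in Col-0 shoot. The Col-0 replicates gave nearly the same share, and the mean share was 2.41 times as high in Col-0 shoot as in mutant shoot. In root the shares were 0.327% and 0.241% in the mutant and 0.17% and 0.138% in Col-0. Set against the sum of PP2C.D2, PP2C.D5 and PP2C.D6 alone, PP2C.D1 stood at 10.7% and 11.3% in mutant shoot and at 20.8% and 23.6% in Col-0 shoot. With 2 libraries against 2, an exact 2-sided permutation test of a share cannot give a p under 0.333, so none is given.

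**Figure D2:**
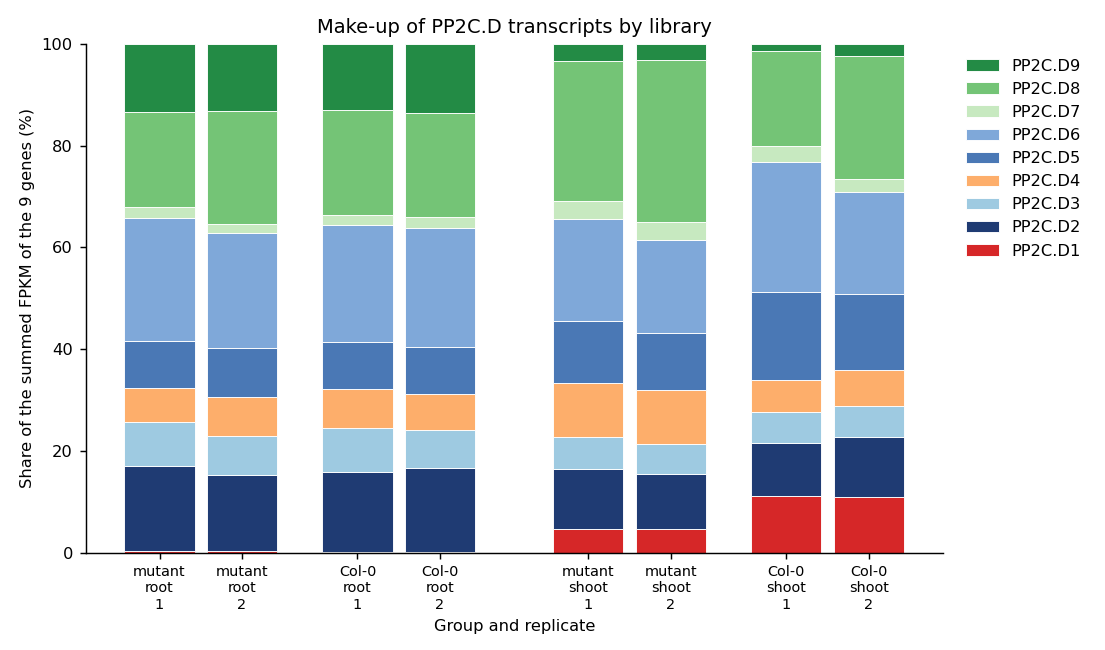
Share of each PP2C.D gene in the summed FPKM of the 9 genes (vertical axis, %) for each of the 8 libraries. PP2C.D1, at the base of each bar, takes 4.53% to 4.66% in mutant shoot and 11.01% to 11.1% in Col-0 shoot, and the 4 root bars differ little.

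The 3 plasma membrane members made up about the same part of the clade in both root genotypes. PP2C.D2, PP2C.D5 and PP2C.D6 together took 48.6 ± 2.15% of the clade's FPKM in mutant root and 48.5 ± 0.708% in Col-0 root, and 42.0 ± 2.51% in mutant shoot and 50.0 ± 4.66% in Col-0 shoot (SD, n = 2). Their summed level was 142.5 ± 0.983 FPKM in mutant root, against 147 ± 1.98 FPKM in Col-0 root. In shoot it was 89 ± 0.556 FPKM in the mutant and 75.1 ± 10.6 FPKM in Col-0.

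PP2C.D6 (AT3G51370; chromosome 3, 19069363 to 19072195) was the most abundant of the 3 in each group. It stood at 69.3 and 67.7 FPKM in mutant root, against 71.1 and 69.2 FPKM in Col-0 root, where the genotypes overlapped. In shoot PP2C.D6 had 40.9 and 39.9 FPKM in the mutant, against 32.5 and 35.6 FPKM in Col-0. Its change in shoot was 0.24 (SE 0.105, limma adjusted p = 0.136), close to the median of all genes and at -0.22 after rescaling within the tissue.

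PP2C.D2 (AT3G17090; chromosome 3, 5826803 to 5829633) stood at 47.5 and 44.99 FPKM in mutant root, against 48.3 and 48.9 FPKM in Col-0 root. In mutant shoot it had 23.8 and 24.0 FPKM, against 13.2 and 20.6 FPKM in Col-0 shoot. Both mutant values were below both Col-0 values in root and above them in shoot. The change of 0.50 in shoot (SE 0.196, limma adjusted p = 0.115) was 0.06 after rescaling within the tissue.

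PP2C.D5 (AT4G38520, APD6; chromosome 4, 18015736 to 18018306) had group means between 24.1 and 28.2 FPKM. In root PP2C.D5 had 26.4 and 29.1 FPKM in the mutant, against 29.0 and 27.4 FPKM in Col-0. In shoot it had 24.7 and 24.7 FPKM in the mutant, against 21.9 and 26.3 FPKM in Col-0. The genotypes overlapped in both organs. Its change in shoot was 0.04 (SE 0.136, 95% confidence interval -0.28 to 0.363, limma adjusted p = 0.87), or -0.27 relative to all genes, and the sign turned with scaling: it was -0.41 after rescaling within the tissue (limma adjusted p = 0.129) and -0.09 without Col-0 shoot replicate 1.

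On the log2(FPKM + 1) scale, as deposited, PP2C.D4 had the largest change of the 9 in shoot. By the ratio of mean FPKM, mutant over Col-0, PP2C.D9 was ahead in shoot, at 2.33 against 2.22 for PP2C.D4. Relative to the median of all genes and after rescaling within the tissue the change of PP2C.D1 was larger in size than that of PP2C.D4. PP2C.D4 (AT3G55050, named PP2C6 in the files; chromosome 3, 20400488 to 20402595) had 21.8 and 23.6 FPKM in mutant shoot, against 7.98 and 12.5 FPKM in Col-0 shoot (1.11, SE 0.214, limma adjusted p = 0.0575; 0.79 relative to all genes). The root values, 19.2 and 22.9 FPKM in the mutant, against 23.7 and 21.4 FPKM in Col-0, overlapped. PP2C.D4 passed in shoot after removal of the length trend (0.83, limma adjusted p = 0.0318), where 5.09% of all tested genes did. It did not pass after rescaling within the tissue (0.67, limma adjusted p = 0.0849). With 1 library left out its change in shoot ranged from 0.812 to 1.4. PP2C.D3 (AT3G12620; chromosome 3, 4009275 to 4011399) had 13.0 and 13.0 FPKM in mutant shoot, against 7.74 and 10.8 FPKM in Col-0 shoot. In root PP2C.D3 had 24.5 and 23.5 FPKM in the mutant, against 26.6 and 22.0 FPKM in Col-0, with overlap. Its change in shoot was 0.47 (SE 0.182, limma adjusted p = 0.115), and 0.04 after rescaling within the tissue.

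PP2C.D7, PP2C.D8 and PP2C.D9 stood higher in both mutant shoots than in both Col-0 shoots. PP2C.D8 (AT4G33920, APD5; chromosome 4, 16260663 to 16262981) had 56.2 and 70.0 FPKM in mutant shoot, against 23.6 and 42.6 FPKM in Col-0 shoot (0.96, SE 0.274, limma adjusted p = 0.082). In root PP2C.D8 had 53.5 and 67.0 FPKM in the mutant, against 63.6 and 60.7 FPKM in Col-0, with overlap. PP2C.D9 (AT5G06750, APD8; chromosome 5, 2086266 to 2089287) had 6.76 and 6.95 FPKM in mutant shoot, against 1.79 and 4.10 FPKM in Col-0 shoot (1.06, SE 0.268, limma adjusted p = 0.0738). In root it was among the abundant members, at 38.3 and 39.8 FPKM in the mutant, against 40.2 and 40.3 FPKM in Col-0. PP2C.D9 shares its locus with AT5G06755, which did not exceed 0.716 FPKM in any library. PP2C.D7 (AT5G66080, APD9; chromosome 5, 26423419 to 26425406) had 7.44 and 8.08 FPKM in mutant shoot, against 4.01 and 4.57 FPKM in Col-0 shoot (0.73, SE 0.147, limma adjusted p = 0.0594). In root PP2C.D7 had 5.75 and 5.33 FPKM in the mutant, against 5.87 and 6.55 FPKM in Col-0. After rescaling within the tissue the shoot changes of PP2C.D7, PP2C.D8 and PP2C.D9 were 0.33, 0.50 and 0.70.

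Taken by their shares, the 3 genes made up 36.6 ± 2.92% of the clade in mutant shoot and 26.1 ± 4.17% in Col-0 shoot (SD, n = 2), and in root 35.7 ± 2.18% in the mutant and 35.9 ± 0.494% in Col-0. The share of PP2C.D4 in shoot was 10.7% and 10.7% in the mutant, against 6.3% and 7.08% in Col-0. The share of PP2C.D5 was 12.1% and 11.2% in mutant shoot, against 17.3% and 14.9% in Col-0 shoot. By share PP2C.D6 also stood lower in mutant shoot without overlap, at 20.01% and 18.12%, against 25.63% and 20.15% in Col-0 shoot. PP2C.D2 and PP2C.D3 overlapped between the shoot genotypes by share. Shares within a clade are tied to each other: a lower one raises the rest.

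Counted over the clade, 0 of 9 members passed in limma in root, where 0.0100% of all tested genes did. An unadjusted p under 0.05 was seen in root for 0 of 9 members and for 514 of all tested genes. With root fitted alone, without the spread of Col-0 shoot, it was seen for 2332 of all tested genes, and 0 of 9 members passed. A member that did not pass in root is therefore not shown to be unchanged. In shoot 0 of 9 passed, where 1.02% of all tested genes did, and 7 of 9 had an unadjusted p under 0.05, as did 7738 of all tested genes. Mutant values lay above Col-0 values without overlap for 7 of 9 members in shoot, a position that 56.8% of the tested genes shared. In root they lay below without overlap for 3 of 9 members, where 22.9% of the tested genes did. The median change of the members was -0.04 in root and 0.51 in shoot, beside -0.00492 and 0.31 over all genes; after rescaling within the tissue the members' medians were -0.04 and 0.06, with 1 and 6 of 9 changes above 0. For the difference between organs 0 of 9 passed in limma, where 0% of all tested genes did, and 5 of 9 had an unadjusted p under 0.05, as did 3094 of all tested genes. Without Col-0 shoot replicate 1, 5 of 9 passed in shoot (PP2C.D1 lower, PP2C.D4, PP2C.D7, PP2C.D8 and PP2C.D9 higher), where 26.1% of all tested genes did. Without Col-0 shoot replicate 2, 8 of 9 did, PP2C.D5 being the exception, where 66.1% of all tested genes did.

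**Figure D3:**
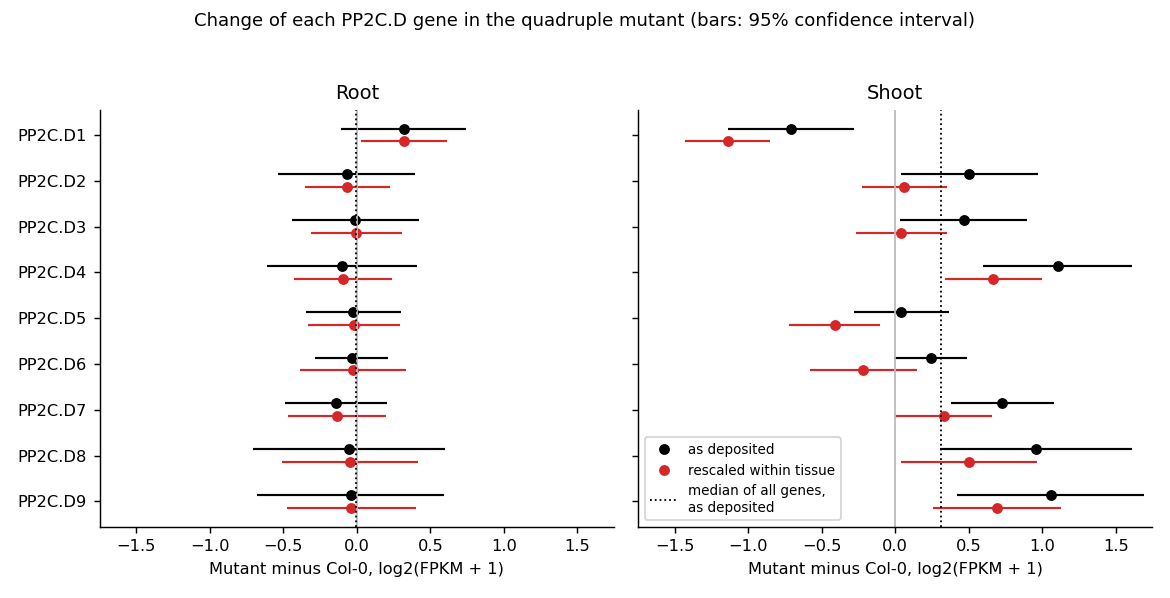
Mutant minus Col-0 change of each PP2C.D gene on the log2(FPKM + 1) scale in root (left) and shoot (right), with its 95% confidence interval, as deposited (black) and after median-ratio rescaling within the tissue (red); the dotted line is the median of all genes as deposited. In shoot PP2C.D1 lies at -0.71 and -1.14, while the other 8 genes run from 0.04 to 1.11 as deposited. After the rescaling PP2C.D5 and PP2C.D6 also lie below 0 in shoot, at -0.41 and -0.22, and the other 6 lie above 0.

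PP2C.D1 and PP2C.D9 were the members that differed most between root and shoot, in opposite directions. In the mutant PP2C.D1 was 11.8 times as high in shoot as in root, and in Col-0 35.9 times. Its root minus shoot difference was -2.56 in the mutant (SE 0.18, limma adjusted p = 1.45e-05) and -3.58 in Col-0 (SE 0.18, limma adjusted p = 2.53e-06). PP2C.D9 was 5.70 times as high in root as in shoot in the mutant and 13.7 times in Col-0. Its difference was 2.35 in the mutant (SE 0.268, limma adjusted p = 1.86e-04) and 3.45 in Col-0 (SE 0.268, limma adjusted p = 2.38e-05). These were the 2 members whose direction between the organs was kept under each alternative that was run and passed in each of them.

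The other 7 members differed less. As deposited, root was higher for PP2C.D2, PP2C.D3 and PP2C.D6 in both genotypes, with differences of 0.92, 0.83 and 0.75 in the mutant and of 1.5, 1.31 and 1.02 in Col-0. PP2C.D4 and PP2C.D8 were higher in root in Col-0 (1.10 and 0.95) and stood at -0.11 and -0.07 in the mutant, which did not pass. PP2C.D7 was lower in root in the mutant (-0.42, limma adjusted p = 0.0329) and higher in root in Col-0 (0.45, limma adjusted p = 0.0229). Neither of these calls was firm: that in the mutant was lost under 7 of 16 alternatives (limma adjusted p from 3.73e-04 to 0.159), and that in Col-0 was lost under 3 of 16 and turned to -0.75 under 1, the rescaling over all 8 libraries. PP2C.D5 passed in neither genotype. In the mutant 6 of 9 members passed, where 76.4% of all tested genes did: 4 were higher in root, as were 58.7% of all tested genes, and 2 lower, as were 17.7%. In Col-0 8 of 9 passed, where 87.2% did: 7 were higher in root, as were 72.1%, and 1 lower, as were 15.0%. The median difference of all genes was 0.81 in the mutant and 1.23 in Col-0. After median-ratio rescaling over all 8 libraries 6 of 9 passed in the mutant and 4 of 9 in Col-0. The number of all genes passing moved with the setting too. Over all alternatives it ran from 11807 to 18183 in the mutant and from 12653 to 18594 in Col-0. The share for this rescaling alone is not given, so these counts are not read as a result about the clade. By direction, PP2C.D9 stayed higher in root in both after that rescaling (1.51 and 2.25) and PP2C.D1 lower (-3.06 and -4.52). PP2C.D5 turned lower (-0.69 and -1.14) and PP2C.D7 was lower in both (-1.17 and -0.75). PP2C.D4 and PP2C.D8 were then lower in root in the mutant (-0.96 and -0.94), and PP2C.D2, PP2C.D3 and PP2C.D6 passed in neither genotype.

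**Figure D4:**
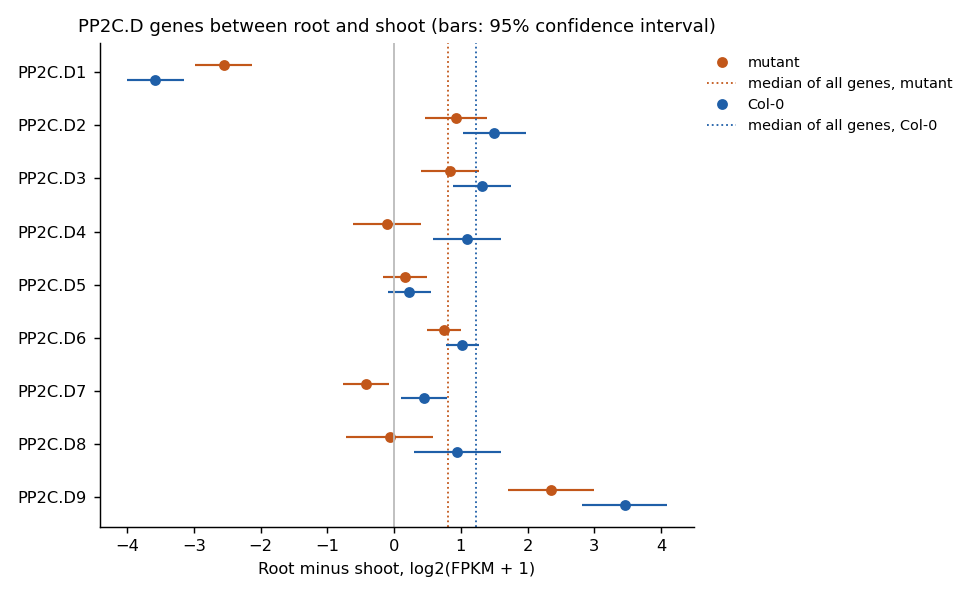
Root minus shoot difference of each PP2C.D gene on the log2(FPKM + 1) scale with its 95% confidence interval, in the mutant (orange, upper) and in Col-0 (blue, lower); dotted lines mark the median of all genes, 0.81 and 1.23. PP2C.D1 lies far to the shoot side (-2.56 and -3.58) and PP2C.D9 far to the root side (2.35 and 3.45).

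Ranked by level, the clade had the same order in mutant root and Col-0 root. PP2C.D6 led at 68.5 ± 1.10 FPKM in mutant root, against 70.2 ± 1.32 FPKM in Col-0 root, followed by PP2C.D8, PP2C.D2, PP2C.D9, PP2C.D5, PP2C.D3, PP2C.D4, PP2C.D7 and PP2C.D1 (SD, n = 2). Neighbours in this order did not overlap, except PP2C.D3 and PP2C.D4 in Col-0 root. In mutant shoot PP2C.D8 led at 63.1 ± 9.76 FPKM and PP2C.D1 was the 7th, at 9.75 ± 0.32 FPKM. In Col-0 shoot PP2C.D6 (34.0 ± 2.18 FPKM) and PP2C.D8 (33.1 ± 13.5 FPKM) overlapped at the top, and PP2C.D1 was the 5th, at 16.8 ± 3.8 FPKM, overlapping PP2C.D2. PP2C.D7 and PP2C.D9 closed the order in both shoot groups. The summed level of the clade was 293.3 ± 11 FPKM in mutant root, against 302.9 ± 8.5 FPKM in Col-0 root. In shoot it was 212.2 ± 11.3 FPKM in the mutant, against 151.6 ± 35.2 FPKM in Col-0. The direction in shoot and the order of the organs changed with the scaling: after median-ratio rescaling over all 8 libraries the sum was 193.2 in mutant root, against 199.1 in Col-0 root, and 259.4 in mutant shoot, against 262.4 in Col-0 shoot, so that mutant shoot lay below Col-0 shoot and both shoot groups lay above root.

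Correlations of the members across the 8 libraries are given as a description, since genes share the libraries and their organ contrast. PP2C.D2, PP2C.D3, PP2C.D6 and PP2C.D9 followed each other with Pearson r between 0.981 and 0.994 on the log2(FPKM + 1) scale. PP2C.D4 and PP2C.D8 followed each other at r = 0.978. PP2C.D5 followed PP2C.D2 most closely, at r = 0.875, and PP2C.D7 followed PP2C.D4 most closely, at r = 0.812. PP2C.D1 was negatively related to all 8 others, from r = -0.178 with PP2C.D7 to r = -0.987 with PP2C.D6. Among 14348 other genes with a mean of at least 5 FPKM, those most like PP2C.D1 over the 8 libraries were AT1G23390 (r = 0.995), HB30 (AT5G15210, r = 0.993) and AT1G68570 (r = 0.993). AT1G23390 had 78.8 and 69.9 FPKM in mutant shoot, against 115.3 and 127.5 FPKM in Col-0 shoot, and HB30 had 15.6 and 15.2 FPKM in mutant shoot, against 21.8 and 20.5 FPKM in Col-0 shoot. Those most like PP2C.D4 were S6K2 (r = 0.995), AT3G52870 (r = 0.994) and AT2G44970 (r = 0.992).

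The pumps on which the phosphatases act were read beside them. Of 11 AHA genes 10 were listed and 8 tested, and 0 passed in limma in root or in shoot, with 1 and 3 at an unadjusted p under 0.05. Of all 19985 tested genes 514 in root and 7738 in shoot had such a p, numbers to set beside each list that follows. As deposited all 8 AHA changes were above 0 in both organs, with a median of 0.28 in root and 0.47 in shoot, beside -0.00492 and 0.31 over all genes. After rescaling within the tissue 8 of 8 were above 0 in root and 6 of 8 in shoot, with medians of 0.29 and 0.17. These counts were the same after rescaling over all libraries and after quantile normalization. After removal of the length trend 5 of 8 were above 0 in root and 3 of 8 in shoot, with medians of 0.15 and -0.34. With RefSeq lengths 5 of 8 and 2 of 8 were. AHA2, the main pump of the root, had 887.9 and 858.9 FPKM in mutant root, against 807.7 and 901.5 FPKM in Col-0 root, with overlap. AHA1, the most abundant pump gene in shoot, had 173.1 and 171.4 FPKM in mutant shoot, against 123.4 and 179.5 FPKM in Col-0 shoot, also with overlap. Among the less abundant pump genes AHA7 had 14.4 and 15.3 FPKM in mutant root, against 10.4 and 11.1 FPKM in Col-0 root (0.43, SE 0.131, limma adjusted p = 1). In shoot AHA8 had 1.97 and 2.31 FPKM in the mutant, against 0.179 and 1.17 FPKM in Col-0 (0.97, SE 0.284, limma adjusted p = 0.0843), and AHA5 had 4.4 and 4.33 FPKM in the mutant, against 0.743 and 2.86 FPKM in Col-0 (1.05, limma adjusted p = 0.0923).

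The receptor kinases TMK1 and TMK4, which phosphorylate the pumps in response to auxin, and TMK3 were tested, and 0 of 3 passed in limma in either organ, with 0 in root and 1 in shoot at an unadjusted p under 0.05. TMK4 had 36.5 and 35.7 FPKM in mutant shoot, against 15.5 and 30.4 FPKM in Col-0 shoot (0.71, SE 0.278, limma adjusted p = 0.118). TMK1 overlapped, with 46.6 and 43.7 FPKM in mutant shoot, against 18.2 and 47.2 FPKM in Col-0 shoot. The 14-3-3 proteins bind the phosphorylated pump and hold it active. Of 11 tested 14-3-3 genes 0 passed in limma in either organ, with 0 in root and 1 in shoot at an unadjusted p under 0.05. Their median was -0.06 in root and 0.08 in shoot. The shoot median was -0.38 after rescaling within the tissue, -0.435 after rescaling over all libraries and -0.045 after quantile normalization. It was -0.209 after removal of the length trend and -0.124 with RefSeq lengths. GRF11 had 6.78 and 7.63 FPKM in mutant shoot, against 3.49 and 4.62 FPKM in Col-0 shoot (0.71, limma adjusted p = 0.0862). SARK, the receptor kinase on which PP2C.D1 acts, had 5.92 and 5.76 FPKM in mutant shoot, against 2.98 and 4.65 FPKM in Col-0 shoot (0.53, SE 0.195, limma adjusted p = 0.107), on the opposite side to PP2C.D1; its change was 0.15 once rescaled within the tissue and -0.03 with the RefSeq length trend removed.

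The SAUR19 subfamily, whose proteins are known to bind and inhibit PP2C.D phosphatases, was read at low levels, and 0 of 5 tested genes passed in limma in either organ, with 0 in root and 1 in shoot at an unadjusted p under 0.05. SAUR19 had 2.74 and 2.35 FPKM in mutant shoot, against 4.21 and 3.12 FPKM in Col-0 shoot (-0.39, SE 0.139, limma adjusted p = 0.103). SAUR21 and SAUR23 overlapped between the shoot genotypes. In root SAUR21 did not exceed 0.195 FPKM, and the other 5 genes of the subfamily were listed at 0 in all 4 libraries. Of the mutated SAUR41 subfamily 3 of 4 genes were tested and 0 passed in limma, with 1 in root and 2 in shoot at an unadjusted p under 0.05; in shoot 1 of 3 passed after quantile normalization and after removal of the length trend. SAUR72 had 4.18 and 3.96 FPKM in mutant shoot, against 9.41 and 7.57 FPKM in Col-0 shoot (-0.90, SE 0.188, limma adjusted p = 0.0624), and 16.9 and 16.3 FPKM in mutant root, against 23.4 and 31.6 FPKM in Col-0 root.

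Clade A phosphatases, the abscisic acid co-receptors, were set beside clade D as another PP2C clade. Of 9 genes 7 were tested. In shoot 1 of 7 passed, where 1.02% of all tested genes did. This was HAI1, which abscisic acid induces: it had 15.2 and 16.3 FPKM in the mutant, against 3.61 and 5.43 FPKM in Col-0 (1.62, SE 0.191, limma adjusted p = 0.0447). HAI1 did not pass with any 1 library outside Col-0 shoot left out (limma adjusted p = 0.153 to 0.344) or with shoot fitted alone (limma adjusted p = 0.333). PP2CA had 102.4 and 111.1 FPKM in mutant shoot, against 47.1 and 80.0 FPKM in Col-0 shoot (0.79, limma adjusted p = 0.0845), and HAI2 had 2.49 and 2.09 FPKM in mutant shoot, against 0.61 and 1.6 FPKM in Col-0 shoot (0.68, limma adjusted p = 0.0923). The 7 clade A changes in shoot were all above 0, as deposited and after each of the 5 scaling or length adjustments, with a median of 0.80 as deposited and of 0.42 after rescaling within the tissue. As deposited 75.6% of all tested genes had a shoot change above 0, with a median of 0.31, and after that rescaling the median of all genes was 0. In root the clade A median was -0.13, and 0 of 7 passed in limma, with 0 at an unadjusted p under 0.05.

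**Figure D5:**
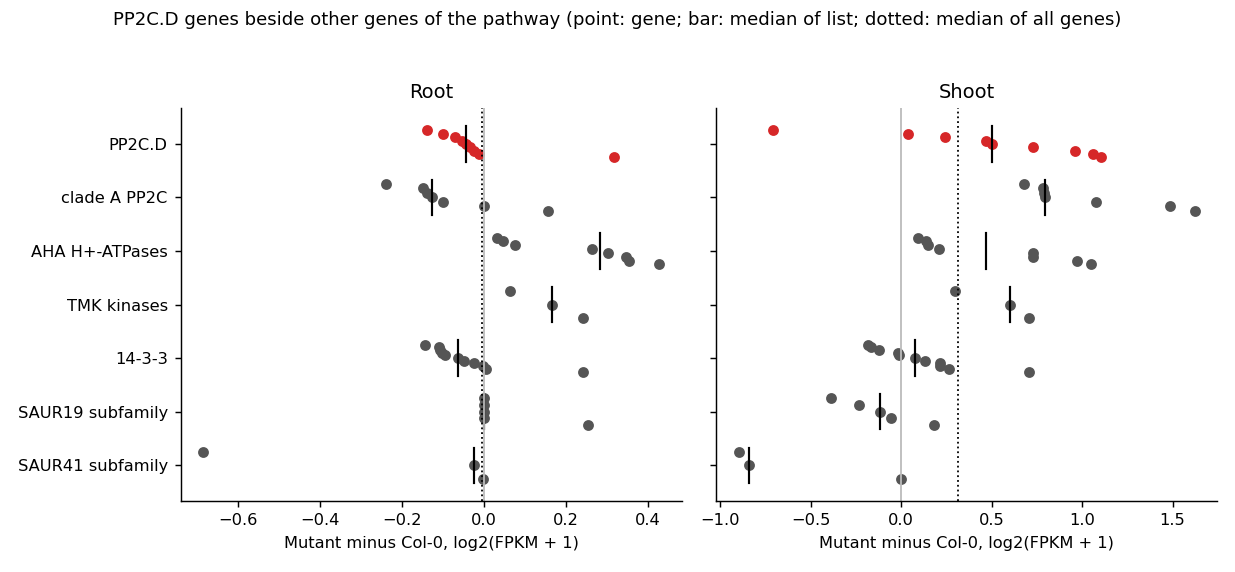
Mutant minus Col-0 change of each tested gene on the log2(FPKM + 1) scale in root (left) and shoot (right). PP2C.D is in red and 6 other gene lists, clade A PP2C among them, are in grey. A bar marks the median of each list and a dotted line the median of all genes. In shoot PP2C.D1, at -0.71, lies apart from the other 8 clade D genes, while the 7 clade A and 8 AHA genes all lie above 0 on the deposited values; after removal of the length trend 3 of the 8 AHA genes do.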

How the data were processed

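Each library came with a table of FPKM values per gene, made by the authors; the build is TAIR10 per the submitters' processing notes. For the steps before these values, and for read numbers, no description was at hand, so it is also unknown whether counting used the strand. A gene absent from a table was taken as 0. Names came from RefSeq's TAIR10.1 gene list (25141 of 25397 identifiers matched). Genes averaging at least 1 FPKM over the root or the shoot libraries were tested (19985, all 9 members among them). A limma 3.58.1 model (R 4.3.3) with the 4 groups was run on log2(FPKM + 1), with trended and robust empirical Bayes moderation and no further scaling. P-values were Benjamini-Hochberg adjusted within each contrast, and 0.05 was the threshold. The procedure was tested on simulated data with changes in root only, the same spread in all groups and no shift between the shoot genotypes. That test therefore does not cover the shoot contrast. Count models need read counts and were not used. The members, lists and alternatives were chosen with earlier results of these data known. Named were all members, up to 3 genes of each list with the smallest unadjusted p in a genotype contrast, AHA1 and AHA2, and the 3 genes most like the members with the largest change in root and in shoot; AT5G02770, AT5G06755, LHCB1.3, PYK10 and EXPA7 were named after their values were seen. No sequences were used here.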

Additional observations from a re-analysis of the deposited data

Results flagged for a closer look

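For 4 of the 9 genes the mutant lay on opposite sides of Col-0 in the 2 organs without overlap, PP2C.D1 in the direction that 0.746% of all tested genes showed and the other 3 in the direction that 8.69% showed. PP2C.D1 stood above Col-0 in mutant root and below it in mutant shoot, with a difference between the changes, root minus shoot, of 1.03 (SE 0.255, limma adjusted p = 0.269). PP2C.D2, PP2C.D7 and PP2C.D9 stood below Col-0 in mutant root and above it in mutant shoot, with differences of -0.57, -0.87 and -1.10 (limma adjusted p = 0.336, 0.263 and 0.293). The difference itself was tested in limma and passed for none of the 4 as deposited. It passed for PP2C.D1, PP2C.D7 and PP2C.D9 without Col-0 shoot replicate 1, where 10.4% of all tested genes passed, and for all 4 without Col-0 shoot replicate 2, where 57.8% did. The median of all genes for this difference was -0.34.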

How the results depend on the processing

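Under 22 alternatives (21 for the difference between organs, 16 for root minus shoot) and at an adjusted p threshold of 0.1, 0 of 9 members passed in root each time. In shoot 1 member (PP2C.D1) passed after median-ratio rescaling within each tissue, where 0.0851% of all tested genes did. The count was also 1 after rescaling over all 8 libraries (0.14% of all tested genes) and after quantile normalization (2.36%). It was 2 after removal of the length trend (5.09%) and 4 with RefSeq lengths (8.75%). At a threshold of 0.1 it was 5. The share of all tested genes at that threshold is not given, so the 5 is not read as a result about the clade. In this contrast 7738 of the 19985 tested genes had an unadjusted p under 0.05 in limma as deposited. With 1 library left out the count of members changed with the library, in shoot and for the difference between organs, as did the count over all genes. The lone library of a group is then assumed to vary like the other groups. For root minus shoot in Col-0 the number of all genes passing ran from 12653 to 18594 over all alternatives. The count of members in that contrast was 4 after rescaling over all 8 libraries. It was 8 as deposited, before that rescaling, where 87.2% of all tested genes passed. After that rescaling the clade's summed level was 193.2 in mutant root, 199.1 in Col-0 root, 259.4 in mutant shoot and 262.4 in Col-0 shoot, which turned its direction between the shoot genotypes and between the organs.

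The following signs turned. In shoot PP2C.D5 was -0.411, -0.466, -0.285, -0.343, -0.388, -0.318 and -0.516 after rescaling within tissue, rescaling over all libraries, quantile normalization, length trend, length trend with RefSeq lengths, and rescaling without Col-0 shoot replicate 1 or 2, and -0.088 to 0.167 with 1 library left out. PP2C.D6 was -0.216, -0.267, -0.193, -0.238, -0.0547 and -0.388 under the same settings other than quantile normalization, PP2C.D3 was -0.00691 after rescaling over all libraries, and PP2C.D2 was -0.0258 after rescaling without Col-0 shoot replicate 1 and -0.0171 with RefSeq lengths. For the difference between organs PP2C.D5 was 0.393, 0.446, 0.274, 0.32, 0.354, 0.3 and 0.498 in that order and -0.191 to 0.0641 with 1 library left out, and PP2C.D6 was 0.188, 0.238, 0.149, 0.183, 0.0271 and 0.36. In root PP2C.D3 was 0.0121 after removal of the length trend and 0.004 with RefSeq lengths. With 1 library left out PP2C.D3 ranged in root from -0.142 to 0.119, PP2C.D4 from -0.217 to 0.0196, PP2C.D5 from -0.0921 to 0.0444 and PP2C.D8 from -0.212 to 0.108. After rescaling over all libraries root minus shoot was -0.0102, -0.694 and -0.127 in the mutant for PP2C.D3, PP2C.D5 and PP2C.D6, and -0.00903, -0.229, -1.14, -0.365, -0.747 and -0.437 in Col-0 for PP2C.D3 to PP2C.D8. In the mutant it ranged from -0.227 to 0.00961 for PP2C.D4 and from -0.227 to 0.0938 for PP2C.D8 with 1 library left out.

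Rescaling without Col-0 shoot replicate 2, and RefSeq lengths, were added after the data were seen. The deviations of same-numbered replicates correlated between groups by -0.111 to 0.153, so they share only a number. With the replicate block 0 members passed in root, where 0.005% of all tested genes did, and 0 in shoot, where 0.01% did. For the difference between organs 0 members and 0% of all tested genes passed with the block. For root minus shoot 8 members passed in Col-0 and 6 in the mutant, the same counts as deposited. There 87.2% and 76.4% of all tested genes passed as deposited, and the shares with the block are not given. Over all alternatives, genes passing numbered 0 to 17 in root (2 as deposited), 0 to 13202 in shoot (204) and 0 to 11547 for the difference between organs (0). HAI1 in shoot did not pass under 11 of its 22 alternatives. The difference between organs could not be fitted with each tissue alone. The cause of these changes was not tested. With 2 libraries a group and no read counts, the precision of low genes such as PP2C.D1 in root is unknown.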
